A study of Mus musculus with 10 samples.

Results

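Zinc inside a cell is buffered by metallothioneins, moved out of the cytosol by exporters of the SLC30 (ZnT) family and brought into it by importers of the SLC39 (ZIP) family. The genes described here were 2 metallothioneins (Mt1 and Mt2), the zinc-sensing transcription factor Mtf1, 3 exporters (Slc30a1, Slc30a5 and Slc30a7) and 4 importers (Slc39a1, Slc39a8, Slc39a10 and Slc39a14). They were 10 of the 22548 genes in the table, matched by gene name. They were chosen from measured values of these libraries, because Mt1 and Mt2 had lower counts in myeloma-bearing mice. For this reason the values of MM and No MM are given for them as a description, without p-values.

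RNA-seq was performed on osteocytes, the cells embedded in bone matrix, from 10 C57BL/6 mice, with 1 library per mouse. The 5 MM mice had received murine myeloma vk12598 cells, a Vk*MYC line, by injection into the femur, and the 5 No MM mice had received no myeloma cells (the methods name an injection of buffer). All mice were labelled as males aged 8 weeks and no engineered allele is named for them. Cells were released from bone pieces by rounds of collagenase and EDTA digestion after the marrow was removed, so a library holds whatever cells the later digests released.

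Metallothioneins are small cysteine-rich proteins that bind zinc and copper. When free zinc rises, the zinc finger protein Mtf1 binds metal response elements, whose core reads TGCACNC or TGCGCNC, and switches on Mt1, Mt2 and the plasma membrane exporter Slc30a1. Glucocorticoids and inflammatory cytokines also induce metallothioneins. In bone, zinc is needed by alkaline phosphatase, which receives its metal in the secretory pathway from the exporters Slc30a5 and Slc30a7.

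Promoters were examined for the genes that Mtf1 is known to drive. The RefSeq start-site windows of the mouse assembly GRCm38.p6 covered 9 of the 10 genes, and Slc39a14 was not among them. Each window of 300 bases, from 250 bases before the start to 50 after it, was searched on both strands for TGCACNC and TGCGCNC, the forms of this core, which differ at 1 base so that no match was counted under both. The 3 sequences below run 5′ to 3′ along the + strand, which is the strand of each gene, and end 30 bases after the start. They are shown because they hold the most cores among the windows found, and capitals mark a core as read on the + strand, so that a core on the opposite strand appears as its reverse complement.
Mt1, chr8:94178839-94179118: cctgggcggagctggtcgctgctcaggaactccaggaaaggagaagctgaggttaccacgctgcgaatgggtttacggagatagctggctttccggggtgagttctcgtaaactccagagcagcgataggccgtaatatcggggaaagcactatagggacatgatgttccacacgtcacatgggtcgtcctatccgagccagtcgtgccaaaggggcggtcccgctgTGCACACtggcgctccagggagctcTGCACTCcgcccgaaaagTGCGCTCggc
Mt2, chr8:94172368-94172647: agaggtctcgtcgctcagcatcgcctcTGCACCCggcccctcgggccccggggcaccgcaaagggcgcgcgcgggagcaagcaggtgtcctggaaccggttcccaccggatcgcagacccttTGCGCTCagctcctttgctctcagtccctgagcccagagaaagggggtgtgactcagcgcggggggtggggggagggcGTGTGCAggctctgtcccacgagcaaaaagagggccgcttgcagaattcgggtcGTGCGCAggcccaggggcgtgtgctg
Slc30a1, chr1:191906531-191906810: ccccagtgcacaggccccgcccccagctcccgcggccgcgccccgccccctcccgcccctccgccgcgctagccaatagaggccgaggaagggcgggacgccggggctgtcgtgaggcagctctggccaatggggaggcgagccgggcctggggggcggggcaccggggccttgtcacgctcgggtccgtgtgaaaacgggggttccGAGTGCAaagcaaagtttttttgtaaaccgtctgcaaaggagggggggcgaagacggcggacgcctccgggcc

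The Mt1 window held 3 cores, all on the strand of the gene, of which the one farthest upstream began 23 bases before the start. The Mt2 window held 4 cores, at -223 and -128 on the strand of the gene and at -50 and 5 on the opposite strand. Positions count the RefSeq start as base 1. Where transcription began in these libraries was not measured, and bases beyond 50 after the RefSeq start were not searched. Slc30a1 had 2 cores on the opposite strand, 1 at -43 to -37 and 1 at 31 to 37, beyond the stretch shown. At least 1 core was found in 25.7% of all 32851 windows, at least 2 in 7.11%, at least 3 in 1.97% and at least 4 in 0.517%. The window of Slc30a5 held 1 core, and those of Mtf1, Slc30a7 and Slc39a1 held none. The Mtf1 window, from chr4:124802299, lay downstream of the listed start of the gene (chr4:124802104). Slc39a10 had 2 windows, beginning at chr1:46853868 and chr1:46926026 on the - strand, and neither held a core. Neither covered the listed start of Slc39a10 (chr1:46892852), so the bases around that start were not searched. For Slc39a8 the window from chr3:135825029, whose start site is the listed start of the gene (chr3:135825279), held 0 cores. Another Slc39a8 window farther downstream, from chr3:135825407, held 1 core. A match is a description of letters, and these libraries contain no measurement of Mtf1 binding. The pair Mt2 and Mt1 lie side by side on the + strand of chromosome 8 (GRCm38), Mt2 at chr8:94172618-94173567 and Mt1 at chr8:94179089-94180325, with 5521 bases between them.

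Each library held 31099174 to 39466332 counted reads. Levels are given as CPM, counts scaled to library size with TMM factors in edgeR, and the detection limit of 3 counts equalled 0.0708 to 0.114 CPM. Each of the 10 genes had between 234 counts (Slc39a8) and 6610 counts (Mt1) in its lowest and highest library, far above that floor, so counting error was small beside the spread between mice. Of 6 osteocyte markers none was at 0 in any library, and their summed level was 308 to 2417 CPM in No MM and 382 to 1703 CPM in MM. None of the neutrophil and erythroid markers was at 0 either, and their summed levels were 6860 to 31810 CPM and 785.3 to 50340 CPM over all libraries. The libraries No MM 3 and No MM 4 stood apart, with 26.6% and 29.0% of their counts on immunoglobulin genes against 0.637% to 3.86% in the other 8. Their summed level of 6 plasma cell markers was 8258 and 8522 CPM, against 560.6 to 1243 CPM elsewhere. Of these sums Jchain alone gave 5554 and 5741 CPM. Mzb1 alone of the 6 was not highest in these libraries. It was at 62.87 and 65.55 CPM there, against 87.64 and 70.44 CPM in No MM 1 and No MM 2. B cell markers summed to 6.01 and 5.59 CPM in No MM 3 and No MM 4, against 97.9 to 275 CPM elsewhere. The summed osteoblast (1599 and 920.4 CPM) and osteoclast markers (791.4 and 621.1 CPM) were also lowest in this pair, against at least 5866 and 1770 CPM. So were neutrophil (6860 and 8063 CPM) and erythroid markers (785.3 and 2728 CPM), against at least 9813 and 6511 CPM. Macrophage, adipocyte and T and NK cell sums were lowest there too, but not osteocyte, muscle and endothelial sums. The part of this cell make-up in the levels below was not tested. No MM 3 and No MM 4 are both labelled No MM, and the labels were kept. Whether these libraries were exchanged with others or took up plasma cells was not tested, so each MM over No MM value rests on labels that these 2 libraries put in doubt. Values without them are therefore given beside the fold changes, list medians and correlations. In bulk RNA, fewer cells of a type and less RNA per cell cannot be told apart. In GENCODE M21, genes on the opposite strand overlap Mt2 (Gm45774), Mtf1 (1110065P20Rik), Slc30a1 (1700034H15Rik), Slc30a7 (Gm43106, Gm6649 and Mir669n) and Slc39a8 (4933401H06Rik), and genes on the same strand overlap Mtf1 (n-R5s192), Slc39a8 (Gm43429 and Gm43428) and Slc39a10 (Gm28151 and Gm37393). The strand setting of the counting is not given in the sources used here, so reads of these genes cannot be told apart from those of their partners.

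Mt1 was the more abundant of the metallothioneins. Its level in the No MM libraries, given here and below in the order 1 to 5, was 167.2, 60.8, 198.8, 239.9 and 112.1 CPM, and in the MM libraries, in the order 6 to 10, 76.8, 55.3, 45.7, 65.8 and 60.2 CPM. The No MM mice thus spread widely and the MM mice narrowly, and the low library No MM 2 lay inside the MM range. The No MM mean was 155.8 ± 70.7 CPM (SD, n = 5), that of MM 60.8 ± 11.6 CPM (SD, n = 5), a log2 fold change of -1.36 (standard error 0.325). It was -0.92 (standard error 0.300), or 0.527 times the No MM level, without No MM 3 and No MM 4.

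Mt2 was measured at 104.7, 32.5, 169.8, 225.9 and 59.0 CPM in the No MM libraries and at 43.8, 32.1, 21.9, 33.9 and 30.3 CPM in MM. Again No MM 2 lay within the MM range, while No MM 4 and No MM 3 were the highest of all 10 libraries. Mean levels of 118.4 ± 79.5 CPM for No MM and 32.4 ± 7.88 CPM for MM (SD, n = 5 each) gave a log2 fold change of -1.87 (standard error 0.458). Leaving out No MM 3 and No MM 4 gave a Mt2 log2 fold change of -1.04 (standard error 0.350), or 0.487 times the No MM level.

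The metallothioneins were not expressed in a fixed ratio. Per kilobase of gene length, Mt2 was 0.829 and 0.915 times Mt1 in No MM 3 and No MM 4. In the other 8 libraries this ratio lay between 0.465 and 0.608, with MM values of 0.465 to 0.564 inside that range. Thus Mt2 was closer to the level of Mt1 in the immunoglobulin-rich libraries, where both were highest. Mt1 and Mt2 are related in sequence, and how the counting treated reads that match both is not given in the sources used here.

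**Figure D1:**
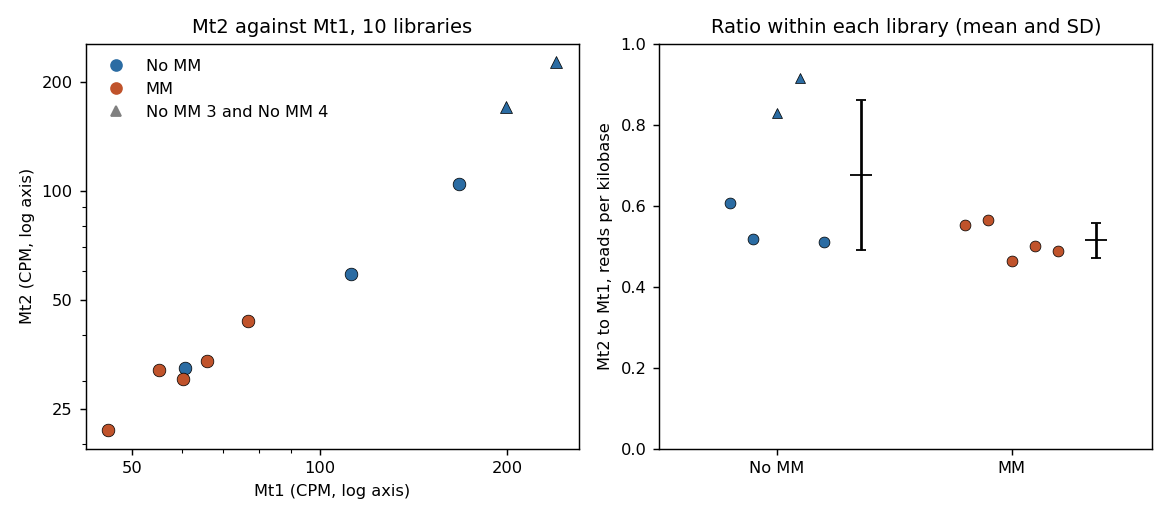
Left, Mt2 against Mt1 in CPM on log axes, 1 point per library. Right, the ratio of Mt2 to Mt1 per kilobase within each library, with the mean and SD of 5 libraries per group. No MM 3 and No MM 4 (triangles) are highest for both genes and for the ratio, at 0.829 and 0.915, and No MM 2 lies among the MM libraries on the left.

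Mtf1 is the transcription factor that senses zinc. Its level was 27.3, 29.4, 21.1, 24.4 and 29.5 CPM in the No MM libraries and 21.7, 32.8, 35.4, 32.1 and 30.3 CPM in MM. Of the MM libraries, 4 were above every No MM library, and MM 6 was below all but No MM 3. The log2 fold change was 0.21 (standard error 0.171), and 0.06 (standard error 0.171) without No MM 3 and No MM 4.

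Slc30a1 is the exporter of the plasma membrane and, like the metallothioneins, a known Mtf1 target. It was found at 28.1, 33.7, 38.2, 44.2 and 40.2 CPM in No MM and at 38.5, 32.2, 26.2, 30.5 and 34.5 CPM in MM, so the groups overlapped over most of their range. Its log2 fold change was -0.19 (standard error 0.165), and -0.09 (standard error 0.176) without No MM 3 and No MM 4. Per kilobase, Mt1 was 17.5 to 57.8 times Slc30a1 in No MM and 16.7 to 21.0 times in MM.

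The exporters of the secretory pathway, Slc30a5 and Slc30a7, were highest in the immunoglobulin-rich libraries. Slc30a5 was measured at 58.3, 71.4, 128.8, 117.9 and 75.6 CPM in No MM and at 72.0, 72.6, 75.5, 69.1 and 69.9 CPM in MM. The MM libraries were tightly grouped, and No MM 3 and No MM 4 were far above all others. The log2 fold change of Slc30a5 was -0.33 (standard error 0.215), and 0.05 (standard error 0.125) without those libraries.

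Slc30a7 had 29.6, 34.7, 83.5, 81.6 and 47.6 CPM in No MM and 48.6, 45.9, 50.6, 35.6 and 43.3 CPM in MM. Its values outside No MM 3 and No MM 4 lay in overlapping ranges in the groups, with No MM 1 and No MM 2 lowest. The sign of its log2 fold change turned from -0.31 (standard error 0.290) to 0.25 (standard error 0.185) when No MM 3 and No MM 4 were left out. The ratio of Slc30a5 to Slc30a7 per kilobase stayed between 4.10 and 5.84 over all 10 libraries.

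Among the importers, Slc39a1 takes up zinc at the cell surface. Its level was 163.4, 106.1, 72.8, 60.8 and 122.6 CPM in No MM and 123.9, 92.0, 89.0, 69.7 and 77.2 CPM in MM. The 3 highest libraries were No MM 1, MM 6 and No MM 5. The same 3 libraries had the highest summed level of 5 osteoblast markers, at 19410, 23800 and 18500 CPM against 920.4 to 11530 CPM in the other 7. Of these sums Col1a1 alone gave 16390, 18660 and 15090 CPM. The same 3 libraries also had the highest summed level of 5 osteoclast markers, at 10310, 6752 and 6586 CPM against at most 3918 CPM. Alpl and Calcr did not follow. In No MM 5 they were at 263.0 and 2.94 CPM, below No MM 2 (285.8 and 3.97 CPM) and MM 7 (303.7 and 5.57 CPM). The other markers of both lists were each highest in the same 3 libraries. The part of either cell type in the Slc39a1 level was not tested. The log2 fold change was -0.22 (standard error 0.271) with all libraries and -0.56 (standard error 0.222) without No MM 3 and No MM 4.

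Slc39a14 imports zinc, manganese and iron not bound to transferrin, and is known as a cytokine-induced gene in liver. It was measured at 52.6, 47.3, 88.5, 78.7 and 95.2 CPM in No MM and at 81.9, 44.1, 32.0, 31.1 and 33.4 CPM in MM. Of the MM libraries, 4 were below every No MM library, while MM 6 was above all but No MM 3 and No MM 5. The log2 fold change was -0.70 (standard error 0.311), -0.56 (standard error 0.368) without No MM 3 and No MM 4, and -1.04 without MM 6. Unlike Mt1 and Mt2, Slc39a14 was highest in No MM 5.

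Slc39a8, an importer of zinc and manganese, had the lowest counts of the group. It lay at 18.0, 14.9, 9.85, 8.49 and 11.5 CPM in No MM and at 10.1, 14.2, 17.9, 15.8 and 15.8 CPM in MM. The importer Slc39a10 was found at 19.5, 22.5, 13.2, 11.9 and 24.8 CPM in No MM and at 28.4, 20.7, 22.9, 17.6 and 22.0 CPM in MM. For both genes No MM 4 and No MM 3 were the lowest of all libraries, and the other No MM values spread over the MM range. Their log2 fold changes, 0.24 (standard error 0.247) for Slc39a8 and 0.28 (standard error 0.235) for Slc39a10, became -0.03 (standard error 0.228) and -0.01 (standard error 0.183) without these libraries.

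**Figure D2:**
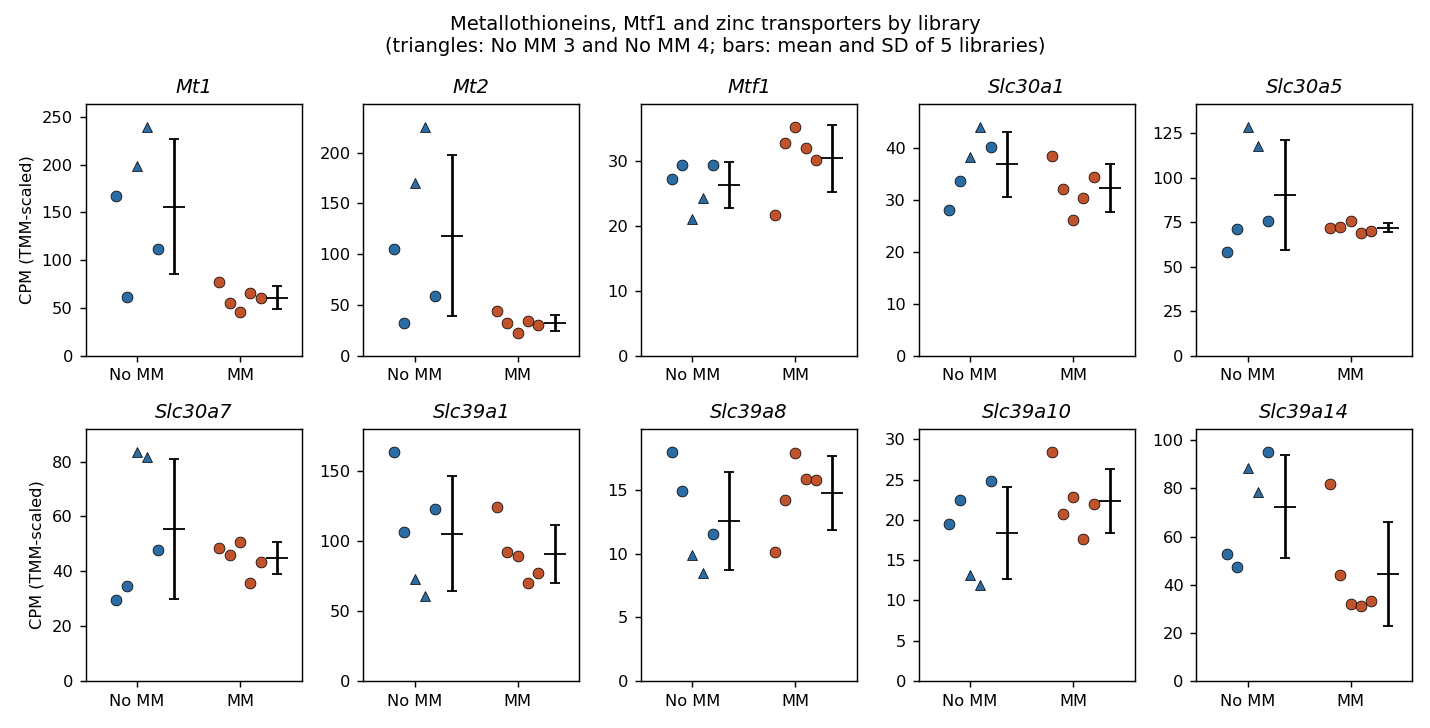
Level of each gene in CPM, with 1 point per library, No MM in blue and MM in orange, and the mean with SD of 5 libraries beside each group. The 2 groups overlap in all 10 panels, and No MM 3 and No MM 4 (triangles) are highest for Mt1, Mt2, Slc30a5 and Slc30a7 and lowest for Slc39a8 and Slc39a10.

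Over the 10 genes, 4 (Mt1, Mt2, Slc30a5 and Slc30a7) had No MM 3 and No MM 4 above the other 8 libraries, against 24.0% of all 16186 tested genes. Both were lowest for 2 genes (Slc39a8 and Slc39a10), against 20.7% of tested genes. The share of the lowest is close to that of the background. Mt1 and Mt2 were chosen for lower values in MM, to which their high values in No MM 3 and No MM 4 contribute. Nothing is therefore read from the 4.

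**Figure D3:**
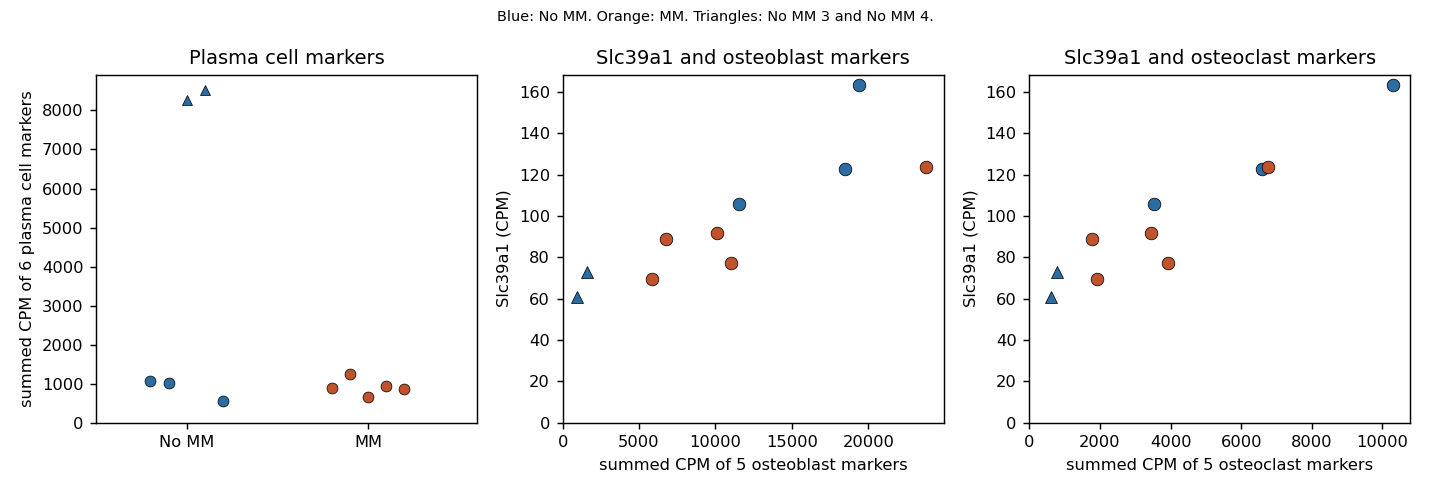
Left, summed CPM of 6 plasma cell markers in each library, No MM in blue and MM in orange, which is 8258 and 8522 in No MM 3 and No MM 4 (triangles) and at most 1243 in the other 8. Middle and right, Slc39a1 in CPM against the summed CPM of 5 osteoblast and of 5 osteoclast markers, where No MM 1, No MM 5 and MM 6 are highest on every axis.

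The comparison of MM with No MM was fitted on all 16186 genes that passed the filter on low counts, and all 10 genes passed. With edgeR's quasi-likelihood test 0 of the 10 had an adjusted p under 0.05, as did 0% of tested genes. At an unadjusted p under 0.05, 3 of the 10 (Mt1, Mt2 and Slc39a14) were lower in MM, against 10.3% of tested genes, and 0 were higher, against 3.81%. Without No MM 3 and No MM 4, 3 of the 10 (Mt1, Mt2 and Slc39a1) were lower at this unadjusted threshold and Slc39a14 was not. The share over the genes tested there was 3.37%. With all libraries, DESeq2 called 2 (Mt1 and Mt2) lower at an adjusted p under 0.05, against 1.15% of the genes it tested. Groups without overlap were found for 0 of the 10, against 1.41% of tested genes. The genes were chosen from this contrast, so nothing is read from these counts. The median log2 fold change was -0.26 over the 10 genes and -0.03 over all tested genes, and -0.06 and -0.02 without No MM 3 and No MM 4.

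**Figure D4:**
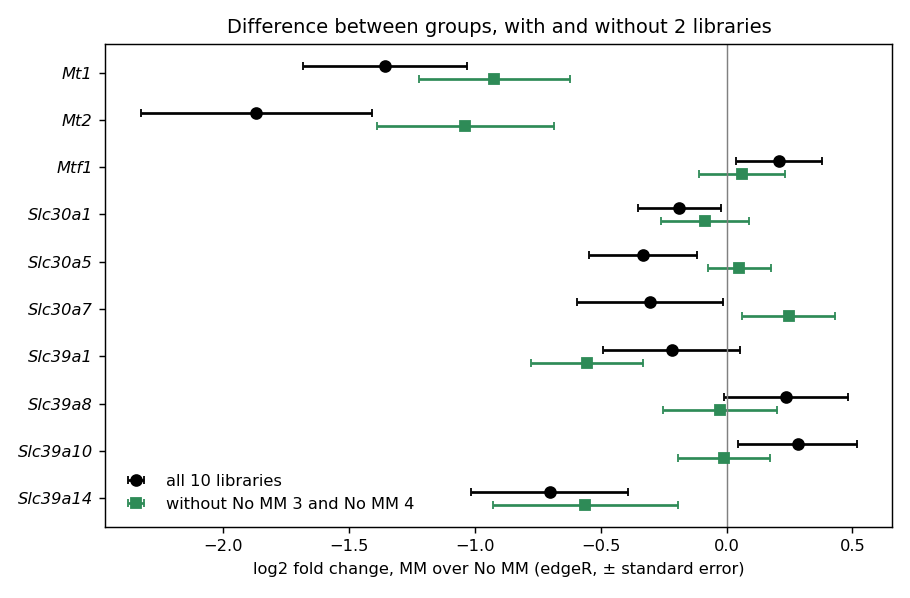
Log2 fold change of MM over No MM from edgeR with its standard error, for all 10 libraries (black circles) and without No MM 3 and No MM 4 (green squares). Mt1, Mt2, Slc39a1 and Slc39a14 are below 0 by more than 1 standard error without these libraries, at -0.92, -1.04, -0.56 and -0.56. Slc30a7 is above 0 by more than 1 standard error, at 0.25 (standard error 0.185). Slc30a5, Slc30a7, Slc39a8 and Slc39a10 change sign.

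The order of levels was read per kilobase of gene length. In No MM it ran from Mt1 (288.4 ± 130.9, SD, n = 5) and Mt2 (212.9 ± 143.0) through Slc39a1 (44.5 ± 17.3), Slc30a5 (28.4 ± 9.76), Slc39a14 (14.2 ± 4.19), Slc30a1 (7.03 ± 1.18) and Slc30a7 (6.14 ± 2.84) to Mtf1 (3.45 ± 0.470), Slc39a10 (3.34 ± 1.03) and Slc39a8 (2.98 ± 0.917 CPM per kilobase). In MM Mt1 was at 112.5 ± 21.5 and Mt2 at 58.3 ± 14.2 CPM per kilobase (SD, n = 5), and Slc39a1 followed with 38.2 ± 8.80. In MM Slc39a10 came before Mtf1, at 4.06 ± 0.719 and 3.99 ± 0.685 CPM per kilobase. In No MM some neighbours differed by less than the larger SD of the pair, so these means did not resolve their order. These were Slc39a1 and Slc30a5, and each pair in the order from Slc30a1 through Slc30a7, Mtf1 and Slc39a10 to Slc39a8. In MM the same held for Slc39a14 (8.70 ± 4.21) and Slc30a1 (6.18 ± 0.873) and for Slc39a10, Mtf1 and Slc39a8. The No MM means of Mt1 and Mt2 also differed by less than the larger SD. Within each of the 10 libraries, however, Mt2 was below Mt1 per kilobase, at 0.465 to 0.915 times its level.

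Because the contrast of MM with No MM had chosen the genes, the question of which transporters vary with the metallothioneins was tested among mice of the same group. For each library the deviation of log2 CPM from its group mean was taken, and deviations of every tested gene were correlated with those of Mt1, with an exact permutation test within groups (two-sided, 14400 arrangements). Since the libraries fall into No MM 3 and No MM 4 on one side and 8 on the other, the value over the 8 is the one within a cluster. The Mt1 deviations ran from -1.205 to 0.774 in No MM and from -0.389 to 0.359 in MM. The No MM mice thus weighed more in each r than the MM mice. Over all 16185 other genes r had a median of 0, with 5th and 95th percentiles of -0.68 and 0.72. An unadjusted p under 0.05 was found for 6.66% of these genes and an adjusted p under 0.05 for 0%, and the lowest adjusted p was 0.529. Of the 9 genes tested here, 2 (Mt2 and Mtf1) had an unadjusted p under 0.05.

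Mt2 was the gene closest to Mt1 of all 16185, with r = 0.981 (exact permutation p = 0.000208, adjusted p = 0.529) and rho = 0.976 (exact permutation p = 0.000278, adjusted p = 0.453). Without No MM 3 and No MM 4, r was 0.985 (n = 8, exact permutation p = 0.00556). After leaving out No MM 2 and No MM 4, whose Mt1 deviations were farthest from the median, r was 0.963 (exact permutation p = 0.00417). The 5 closest genes also included Wdr24 (r = 0.964), Lmf2 (r = 0.951) and Serhl (r = 0.941), each with an adjusted p of 0.529 in the exact permutation test. None of these 3 is a zinc transporter or metallothionein.

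Mtf1 varied opposite to Mt1, with r = -0.649 (exact permutation p = 0.0174, adjusted p = 0.686) and rho = -0.879 (exact permutation p = 0.00181, adjusted p = 0.453). Mice with more Mt1 mRNA than the rest of their group thus tended to have less Mtf1 mRNA, but neither value passed the adjustment over all genes. It did not hold for each mouse. No MM 1 and MM 9 had positive Mt1 deviations (0.253 and 0.137) with Mtf1 at 27.3 and 32.1 CPM, above group means of 26.3 and 30.4 CPM. MM 10, with a Mt1 deviation of 0.008, had Mtf1 at 30.3 CPM, about the MM mean. Without No MM 3 and No MM 4, r was -0.511 (n = 8, exact permutation p = 0.0292), and without No MM 2 and No MM 4 it was -0.832 (exact permutation p = 0.0264). Ranked from the highest r, Mtf1 was at place 15101 of 16185.

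For none of the exporters or importers did the covariation with Mt1 have an unadjusted exact permutation p under 0.05. The exporters had positive r, at 0.409 for Slc30a1 (exact permutation p = 0.338), 0.514 for Slc30a5 (exact permutation p = 0.338) and 0.547 for Slc30a7 (exact permutation p = 0.272). Without No MM 3 and No MM 4 these became 0.073, -0.651 and -0.248 (exact permutation p = 0.918, 0.429 and 0.785, n = 8), so the positive values of Slc30a5 and Slc30a7 rested on those libraries. Among importers Slc39a14 had r = 0.469 (exact permutation p = 0.146) and 0.383 without the 2 libraries (exact permutation p = 0.389). Slc39a8 and Slc39a10 had r = -0.568 (exact permutation p = 0.164) and r = -0.629 (exact permutation p = 0.145), which became -0.148 and -0.074 (exact permutation p = 0.789 and 0.824). The value for Slc39a1 turned from -0.315 (exact permutation p = 0.534) to 0.614 (exact permutation p = 0.138, n = 8). Spearman's rho with all libraries was 0.491, 0.442 and 0.455 for Slc30a1, Slc30a5 and Slc30a7, and -0.358, -0.576, -0.539 and 0.455 for Slc39a1, Slc39a8, Slc39a10 and Slc39a14, with exact permutation p from 0.121 to 0.395. The adjusted p of r was between 0.686 and 0.795 for these 7 transporters, and that of rho between 0.549 and 0.633. Leaving out No MM 2 and No MM 4 gave r of 0.249, 0.291, 0.152, -0.127, -0.402, -0.428 and 0.269 in the same order, with exact permutation p from 0.415 to 0.876.

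**Figure D5:**
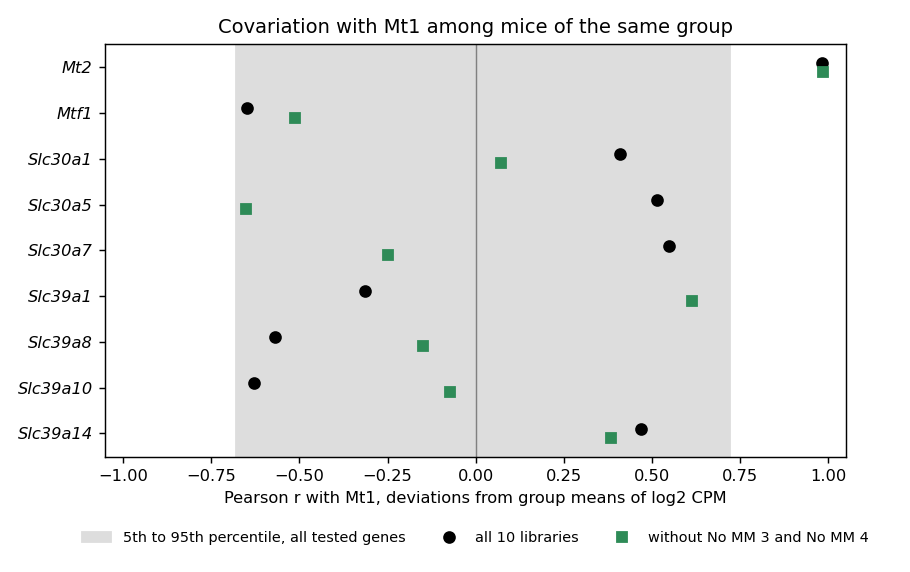
Pearson r with Mt1 of the deviations from group means, for all 10 libraries (black circles) and without No MM 3 and No MM 4 (green squares), with the range between the 5th and 95th percentile of all tested genes in grey. The grey range is that of all 10 libraries. Mt2 lies outside it at 0.981 and 0.985, the 8 other genes lie inside it, and Slc30a5, Slc30a7 and Slc39a1 change sign between the 2 sets of libraries. Without No MM 3 and No MM 4 the range of all tested genes was -0.65 to 0.65, and Slc30a5 at -0.651 lay at its edge.

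A further 19 metallothioneins and zinc transporters were listed, of which Mt4 and Slc30a8 were not analysed here and Slc30a3, Slc39a5 and Slc39a12 were not tested because of low counts. Of the 14 tested, 0 passed an adjusted p of 0.05 in edgeR, against 0% of all genes. At an unadjusted p under 0.05, 4 of the 14 were lower in MM, against 10.3% of tested genes, and 0 were higher, against 3.81%. When No MM 3 and No MM 4 were left out, 15 of the list passed the filter and 2 of these (Slc39a3 and Slc39a11) were lower at an unadjusted p under 0.05, against 3.37% of the genes tested there. The median log2 fold change was -0.36, and -0.22 without No MM 3 and No MM 4, against -0.03 and -0.02 over all tested genes.

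Those 4 were Slc30a2, Slc39a4, Slc39a9 and Slc39a11. Slc30a2, which fills vesicles with zinc, had a log2 fold change of -1.30 (standard error 0.568), or -0.61 (standard error 0.577) without No MM 3 and No MM 4, with counts of 13 to 189 per library. Slc39a4, the main zinc importer of the gut, was at -1.10 (standard error 0.460), or -0.14 (standard error 0.304) without No MM 3 and No MM 4, and 10.7 CPM in each of No MM 3 and No MM 4 stood against 2.07 to 3.88 CPM elsewhere. Slc39a9 was at -0.36 (standard error 0.165), or -0.12 (standard error 0.119) without those libraries, where it too was highest. Without the pair, Slc30a2, Slc39a4 and Slc39a9 no longer had an unadjusted p under 0.05. Slc39a11 was at -0.38 (standard error 0.141), with 53.2, 41.4, 48.0, 43.4 and 52.0 CPM in No MM and 30.0, 38.8, 36.0, 35.6 and 42.7 CPM in MM. MM 10 alone among the MM libraries lay above the lowest No MM library for Slc39a11, and its log2 fold change of -0.44 (standard error 0.159) without No MM 3 and No MM 4 was close to that with all libraries. The edgeR adjusted p was 0.343 for Slc30a2, 0.332 for Slc39a4, 0.354 for Slc39a9 and 0.315 for Slc39a11.

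Mt3, the metallothionein of the nervous system, did not share the order of Mt1 and Mt2 over the libraries. It was measured at 62.9, 22.8, 6.85, 5.63 and 31.0 CPM in No MM and at 38.9, 22.1, 6.24, 11.0 and 19.5 CPM in MM, so No MM 4 was its lowest library and the highest for Mt1 and Mt2. The log2 fold change of Mt3 was -0.40 (standard error 0.663), and -1.01 (standard error 0.547) without No MM 3 and No MM 4. No MM 3 and No MM 4 were both highest for 6 of the 14 genes (Slc30a2, Slc39a2, Slc39a4, Slc39a6, Slc39a7 and Slc39a9), against 24.0% of tested genes, and both lowest for 3 (Slc30a10, Slc39a3 and Slc39a13), against 20.7%. The remaining transporters had log2 fold changes of -0.37 (standard error 0.324) for Slc30a4, -0.28 (standard error 0.163) for Slc30a6, 0.30 (standard error 0.210) for Slc30a9 and 1.37 (standard error 0.773) for Slc30a10, which had 2 to 281 counts per library. Among the importers the values were -0.07 (standard error 0.562) for Slc39a2, -0.14 (standard error 0.247) for Slc39a3, -0.36 (standard error 0.194) for Slc39a6, -0.57 (standard error 0.294) for Slc39a7 and 0.29 (standard error 0.333) for Slc39a13. None of these 9 had an unadjusted p under 0.05 in the edgeR test with all libraries. When No MM 3 and No MM 4 were left out, Slc39a2 turned to 1.03 (standard error 0.499) and Slc39a13 to -0.02 (standard error 0.346), and Slc39a3 was at -0.46 (standard error 0.184). The others kept their sign, at -0.33 for Slc30a4, -0.22 for Slc30a6, 0.10 for Slc30a9, 0.76 for Slc30a10, -0.08 for Slc39a6 and -0.29 for Slc39a7.

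Pathways that meet the metallothioneins were described by their counts. Of 5 other genes known to respond to Mtf1, 0 passed an adjusted p of 0.05 in edgeR and 2 (Selenow and Selenoh) were lower at an unadjusted p under 0.05, against 10.3% of tested genes. Selenoh, a nuclear selenoprotein, was at 58.7, 38.9, 63.8, 47.5 and 36.3 CPM in No MM and at 24.3, 34.0, 35.5, 30.8 and 30.6 CPM in MM. All MM libraries were below all No MM libraries, and groups without overlap in either direction were found for 1.41% of tested genes. Selenoh is described because it met this rule. Its log2 fold change was -0.66 (standard error 0.191, edgeR adjusted p = 0.315), and -0.55 (standard error 0.201) without No MM 3 and No MM 4. Without the 2 libraries 1 of the 5 was lower at an unadjusted p under 0.05, against 3.37% of the genes tested there. The median log2 fold change of these 5 genes was -0.41, and -0.55 without the 2 libraries. Over all tested genes it was -0.03 and -0.02.

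Metallothioneins also respond to glucocorticoids and to IL-6 signaling. Of 11 glucocorticoid-responsive genes and of 12 IL-6 and STAT3 genes, 0 had an adjusted or unadjusted p under 0.05 in edgeR. Over all tested genes 0% passed the adjusted threshold, and 10.3% were lower and 3.81% higher at an unadjusted p under 0.05. The median log2 fold changes of the lists were 0.19 and 0.25, against -0.03 over all tested genes. These medians were 0.06 and 0.07 without No MM 3 and No MM 4, against -0.02 over all tested genes. For 11 copper-handling genes the median was -0.18, and -0.12 without these libraries, with 1 gene (Sco2) lower at an unadjusted p under 0.05, against 10.3% of tested genes. For 12 iron-handling genes it was 0.24, and it turned to -0.19 without No MM 3 and No MM 4. For 11 glutathione and NRF2 genes it was -0.18, with -0.33 after No MM 3 and No MM 4 were left out and 0.30 without No MM 1. In none of these 5 lists did a gene pass an adjusted p of 0.05 in edgeR, against 0% of all tested genes.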

How the data were processed

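RNA was isolated from osteocytes of 5 No MM and 5 MM mice and sequenced as stranded total RNA libraries, with groups taken from the labels. The submitters' processing notes name FastQC 0.11.5 and STAR, and the counting program, build and annotation are not given in the sources used here. The authors deposited whole-number read counts per gene and library, without normalization, and these were analysed. The deposited table also holds a normalized signal (each library's counts over its size factor) and FPKM values, which were not analysed further. The log2 fold changes and p-values in it are the authors' own comparison and were not used. Gene lengths from the table were used for levels per kilobase. Gene identifiers were looked up in GENCODE M21 (GRCm38), where 22284 were present and 68.3% had identical positions.

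Counts of all 10 libraries were filtered with filterByExpr, which left 16186 genes. TMM factors and the quasi-likelihood test of edgeR 4.0.16 (glmQLFit, glmQLFTest; R 4.3.3) were then applied, with Benjamini-Hochberg adjustment over all tested genes. Standard errors were derived from the F statistic. Correlations used log2 CPM with a prior count of 2 (Python 3.11.15, numpy 2.4.6), and the adjustment covered all other tested genes. Both steps were tested on simulated data. Library totals ran from 31099174 to 39466332 reads, and the limit of 3 counts covers only the error of counting, as the reads carry no molecular identifiers. Promoter windows came from RefSeq (GRCm38.p6).

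The 10 genes and all lists were chosen with earlier results of these data known. Named were the 10 genes, the 19 listed relatives, list genes past an adjusted p of 0.05 or, with none, up to 2 in each direction with an unadjusted p under 0.05 and groups without overlap, and the 5 genes closest to Mt1, of which 1 is not reported here. Selenow and Sco2 were named after their values were seen. Alternatives were DESeq2 1.42.0, RLE and upper quartile factors, other filters, immunoglobulin genes left out, Mt2 in place of Mt1, Spearman's rho, a prior count of 0.5, each library left out in turn, and No MM 3 and No MM 4 left out together. Leaving out the libraries with the most extreme Mt1 deviations was added after seeing the data.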

Additional observations from a re-analysis of the deposited data

Results flagged for a closer look

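In the 5 MM libraries, MM 6 stood apart for 3 zinc importers by Dixon's criterion, in which the gap to the nearest library is divided by the range of the group and compared with 0.71. For Slc39a14, MM 6 was at 81.9 CPM and the nearest library at 44.1 CPM, a gap of 0.744 of the range. Slc39a3 was at 31.0 CPM in MM 6 against 23.4 CPM in the nearest library (0.799 of the range), and Slc39a13, an importer of the Golgi that is needed for connective tissue, at 114 CPM against 55.6 CPM (0.798 of the range). With 60 sets of 5 values examined, chance gives about 3 such results, and 3 were found. MM 6 also had the highest summed level of osteoblast markers of the 10 libraries, 23800 CPM. Among the MM libraries it was highest for osteoclast (6752 CPM), osteocyte (1703 CPM), muscle (3612 CPM), adipocyte (261.3 CPM) and endothelial (344.3 CPM) markers and lowest for neutrophil (9813 CPM) and erythroid (6511 CPM) markers, and the part of these cells in the 3 values was not tested.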

How the results depend on the processing

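No paired analysis was possible because replicates were labelled 1 to 5 in No MM and 6 to 10 in MM, with no number in common. The main limit is the immunoglobulin-rich pair of No MM libraries. Without No MM 3 and No MM 4 the log2 fold changes of Slc30a5 (0.051), Slc30a7 (0.247), Slc39a8 (-0.026) and Slc39a10 (-0.012) changed sign, as did the correlations with Mt1 of Slc30a5 (-0.651), Slc30a7 (-0.248) and Slc39a1 (0.614), and 560 genes in place of 1664 were lower at an unadjusted p under 0.05. The number of adjusted calls depended on the tool, with 32 genes higher and 192 lower in DESeq2 against 0 and 0 in edgeR, where 617 and 1664 had an unadjusted p under 0.05. DESeq2 gave 968 higher genes at an unadjusted p under 0.05 and called 1 copper-handling gene at an adjusted p under 0.05. With 1 library left out at a time, unadjusted calls ran from 291 to 1276 genes higher (291 without No MM 3, 376 without No MM 4, 1276 without No MM 5, 370 without MM 8 and 407 without MM 9) and from 939 to 2376 lower (941 without No MM 3, 939 without No MM 4 and 1084 without MM 10), while adjusted edgeR calls stayed at 0. The median log2 fold change of the glutathione and NRF2 list ran from -0.24 to 0.30. Over the same 10 omissions the log2 fold change ran from -1.56 to -1.15 for Mt1, from -2.10 to -1.50 for Mt2, 0.14 to 0.31 for Mtf1, -0.27 to -0.12 for Slc30a1, -0.46 to -0.17 for Slc30a5, -0.46 to -0.11 for Slc30a7, -0.365 to -0.004 for Slc39a1, 0.12 to 0.40 for Slc39a8, 0.16 to 0.41 for Slc39a10 and -1.04 to -0.59 for Slc39a14. The correlation with Mt1 ran from 0.973 to 0.986 for Mt2, -0.746 to -0.589 for Mtf1, 0.216 to 0.685 for Slc30a1, 0.340 to 0.822 for Slc30a5, 0.373 to 0.827 for Slc30a7, -0.543 to -0.008 for Slc39a1, -0.843 to -0.404 for Slc39a8, -0.805 to -0.466 for Slc39a10 and 0.240 to 0.590 for Slc39a14. None of these changed sign, though the sizes for the transporters depended on single libraries. Nor did they change sign with RLE factors, and no correlation did with Spearman's rho, a prior count of 0.5 or the most extreme Mt1 libraries left out. The causes of these changes were not tested.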
